A study of Mus musculus with 16 samples.

Results

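The genes described here are the collagen chains of mouse quadriceps muscle and 11 proteins that process collagen. Of the 13320 genes in the deposited count table, 46 belonged to this set. They comprised 35 symbols made of Col, 1 or 2 digits, the letter a and 1 or 2 digits, together with Plod1, Plod2, Plod3, P4ha1, P4ha2, Serpinh1, Lox, Loxl1, Loxl2, Pcolce and Bmp1. Membership follows from the symbol, but the set was chosen with earlier results of these data known. Fibrillar collagens made up 10 of the 46, basement membrane collagens 7, other collagens 18 and processing proteins 11. All 46 passed the filter on low counts, but every gene in the table already exceeded 0.5 CPM (counts scaled by library size) in at least 4 libraries, so chains below that level are outside the count. Col2a1 and Col4a6 were not in the deposited table and so were not analysed.

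Messenger RNA of quadriceps was sequenced from 16 libraries of male CD2F1 mice aged 8 weeks at the start, in 4 groups of 4. The C26 line, from a mouse colon tumour, makes mice lose muscle as it grows. Splenic C26 mice received C26 cells in the spleen, to model spread to the liver, and sham mice were operated on and given saline. Subcutaneous C26 mice carried C26 cells under the skin; the labels do not state how the control mice were treated, nor how many weeks later muscle was taken. RNA of all libraries was isolated and sequenced at one time, per the labels. Sham and splenic C26 libraries share a title prefix that differs from that of control and subcutaneous C26 libraries, so each tumour group was compared with the tumour-free group of its own prefix. Whether each library of a group is a separate mouse is not in the labels, so every p-value here reflects spread among libraries that may be technical.

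Collagens are triple helices of chains that are hydroxylated and folded in the endoplasmic reticulum, secreted, trimmed and cross-linked. Fibrillar collagens give tendon and the sheaths of muscle their tensile strength and are made mainly by fibroblasts, whereas the type IV network lies in the basement membrane around every muscle fibre and capillary. Type VI collagen forms beaded filaments that link the basement membrane to the surrounding matrix, and its loss causes inherited muscle disease.

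Libraries held 25.9 to 34.9 M gene counts, and the 46 genes took 0.240% to 0.413% of them in tumour-free and 0.0733% to 0.232% in tumour libraries. Summed markers of muscle fibres were 112800 to 298400 CPM across all libraries, so each library held muscle RNA. Some libraries also held transcripts of other tissues, whose part in the results was not tested. The 8 hepatocyte markers summed to 134.5 CPM in splenic C26 replicate 1 against 0.41 to 3.91 CPM in sham, and to 30.9 to 237 CPM in the control libraries against 1.53 to 8.25 CPM in subcutaneous C26. In splenic C26 the 7 neutrophil markers summed to 169 CPM for replicate 3, against 3.14 to 15.8 CPM in the rest of that group and 0.581 to 0.823 CPM in sham, with Camp, Ltf and Mpo at 0 in all sham libraries. They summed to 45.8 CPM in control replicate 1, 0.610 to 1.98 CPM in the other control libraries and 2.154 to 25.7 CPM in subcutaneous C26. Splenic C26 replicate 1 stood apart in the set too: it was the highest of its group in 27 of the 29 genes called lower. In those 29 genes its median level was 51.1% of the sham mean, against 13.3% to 15.3% in the other 3 libraries. In subcutaneous C26 replicate 3 was the highest in 19 of the 30 genes called lower, at a median of 33.4% of the control mean against 14.2% to 28.4%. How often these libraries were the highest over all genes was not counted. Without splenic C26 replicate 1 the splenic calls over all genes went from 3745 higher and 3186 lower to 4158 and 4043. Without subcutaneous C26 replicate 3 the subcutaneous calls went from 3593 and 3072 to 3813 and 3734. Leaving out any other library of the same tumour group gave fewer calls. Without splenic C26 replicates 1 and 3, control replicate 1 and subcutaneous C26 replicate 4, a set taken from an earlier reading of these data, 31 members were called lower and 1 higher in splenic C26, and 30 and 3 in subcutaneous C26. That set is not the libraries highest in these markers: control replicates 2 and 4, at 177 and 237 CPM of hepatocyte markers, stayed in, and subcutaneous C26 replicate 4 held 6.44 CPM of hepatocyte and 5.74 CPM of neutrophil markers.

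Most of the set fell in both kinds of tumour-bearing mice. In splenic C26 against sham 29 of the 46 genes were lower and 3 higher at an adjusted p under 0.05 (of all 13320 genes 52.0% were called, 23.9% lower and 28.1% higher), with a median log2 fold change of -1.43 against -0.03 over all genes (-2.09 over the 46 without splenic C26 replicate 1). In subcutaneous C26 against control 30 were lower and 3 higher (23.1% and 27.0% of all genes), with a median of -1.57 against -0.02. Levels of the tumour and tumour-free libraries did not overlap, on the lower side, for 28 genes in the splenic and 30 in the subcutaneous comparison (21.1% and 20.7% of all genes), and on the higher side for 3 in each (21.1% and 25.2%). Because RNA came from whole muscle, fewer cells of a type and less RNA per cell cannot be told apart.

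The classes were unequal. All 10 fibrillar genes were called lower at both tumour sites, with median log2 fold changes of -2.27 in splenic and -2.33 in subcutaneous C26. Among the 7 basement membrane genes 5 and 6 were lower, with medians of -1.45 and -1.70. Of the 18 other collagens 9 were lower and 2 higher in splenic C26, and 11 were lower and 1 higher in subcutaneous C26, with medians of -1.06 and -1.24. The 11 processing proteins gave 5 lower and 1 higher, then 3 lower and 2 higher, with medians of -0.50 and -0.40. Differences between classes were not tested, since the classes hold few genes that are not independent of each other.

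**Figure D1:**
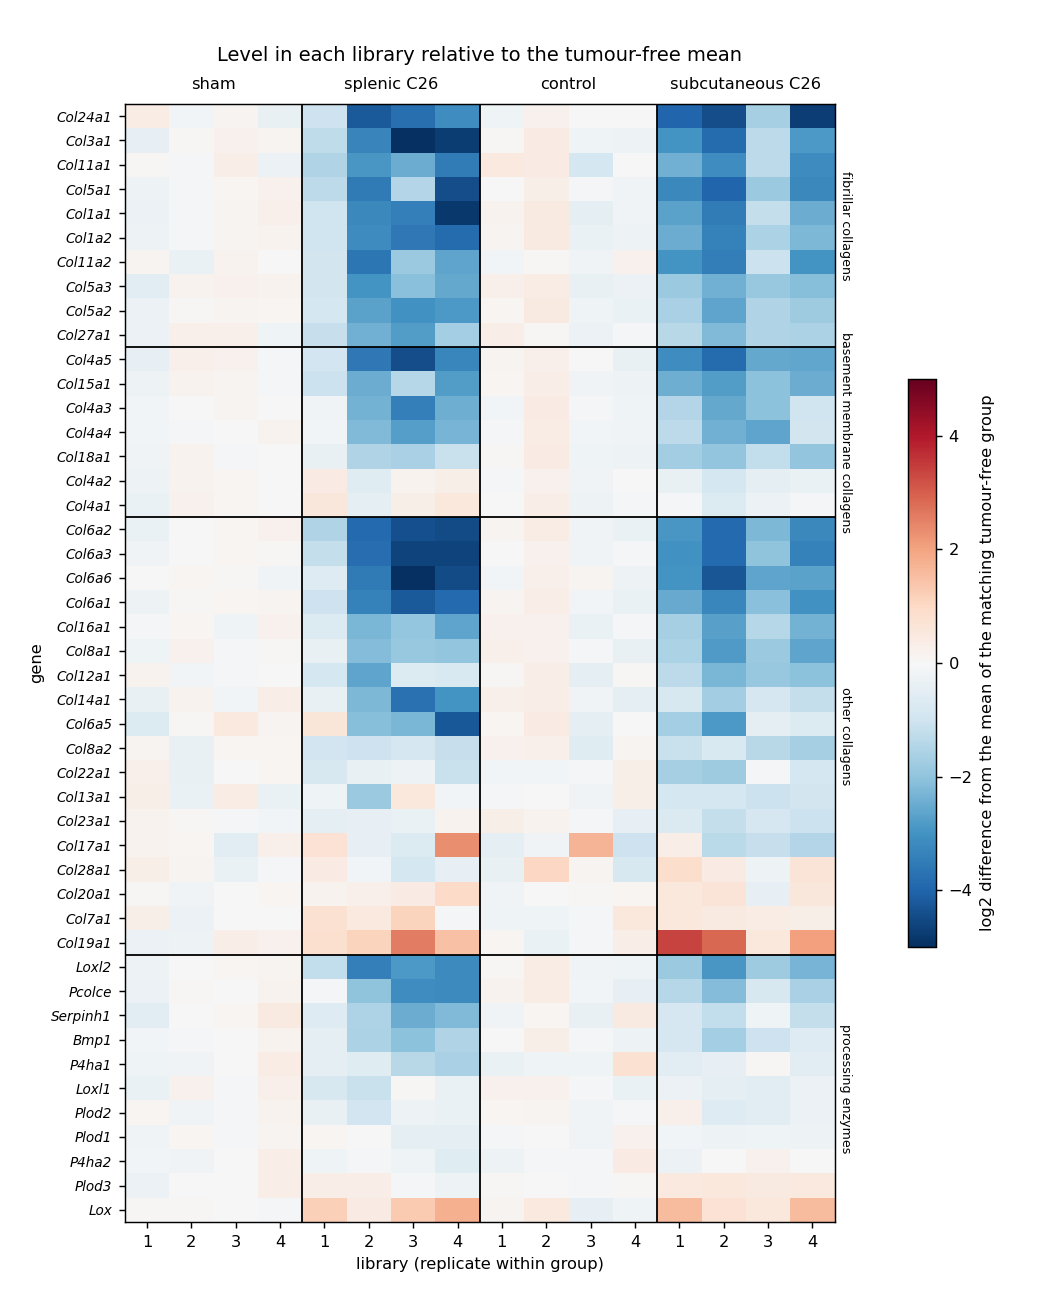
Each row is a gene and each column a library; colour gives the log2 difference of CPM (prior count 2) from the mean of the matching tumour-free group, and the colour scale ends at 5 in either direction. The fibrillar block and 4 type VI rows are blue in all 8 tumour libraries and, within splenic C26, palest in replicate 1, while Col4a1 and Col4a2 stay near white and Col19a1 and Lox are red.

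Call by call, 26 genes were lower at both tumour sites and 2, Col19a1 and Lox, were higher at both. Col14a1, P4ha1 and Serpinh1 were called lower in the splenic comparison and missed the threshold in the subcutaneous one, and Col4a2, Col13a1, Col22a1 and Col23a1 did the reverse. Col7a1 was called higher in splenic C26 and Plod3 in subcutaneous C26. For none of these 9 genes was the difference between the tumour sites itself called. Col4a1, Col6a5, Col17a1, Col20a1, Col28a1, Loxl1, P4ha2, Plod1 and Plod2 passed in neither. The comparisons share no library, and the log2 fold changes of 42 of the 46 genes had the same sign in both (Pearson r = 0.90 across 46 genes, which are not independent replicates).

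**Figure D2:**
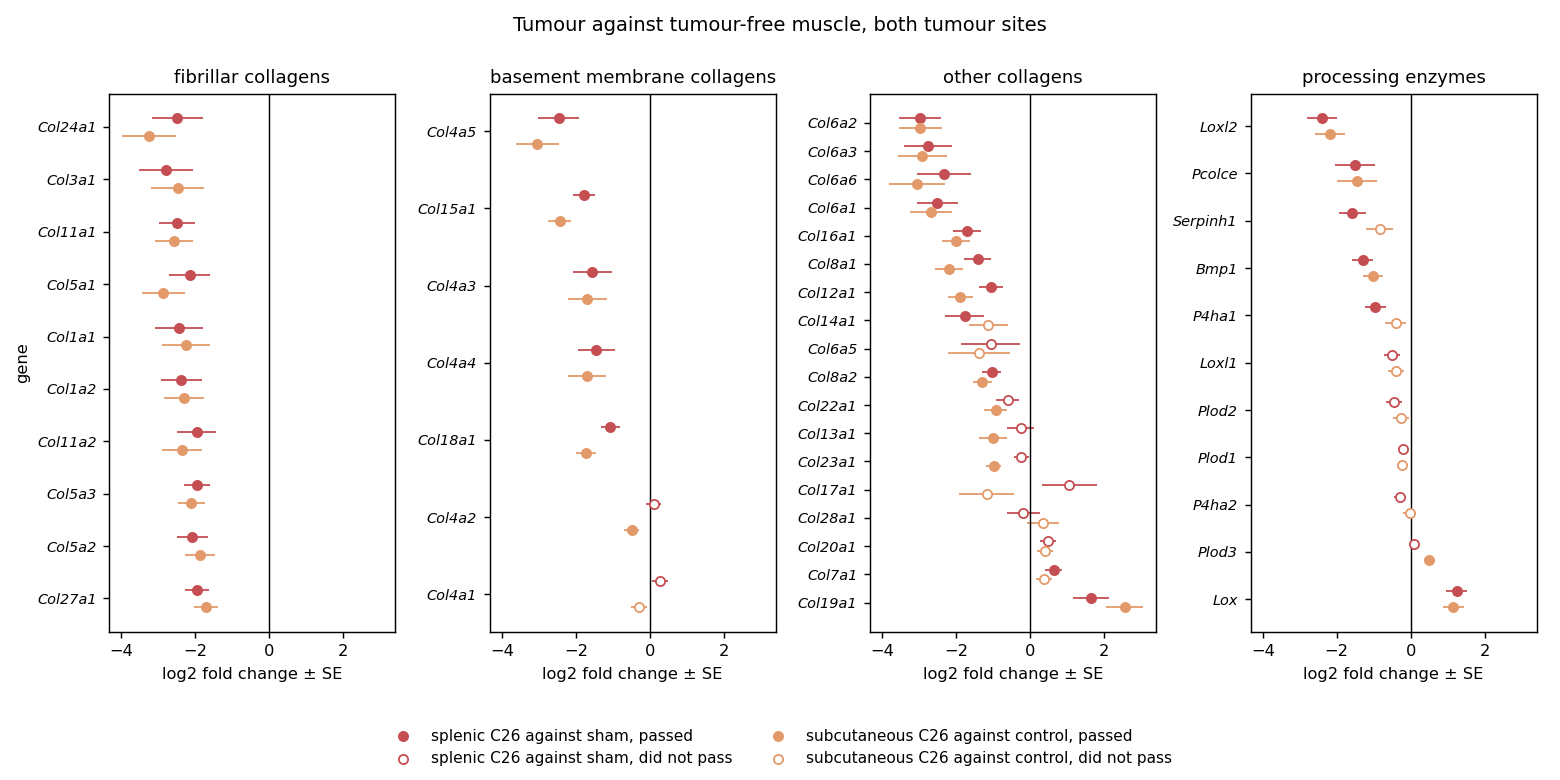
Log2 fold changes with their standard errors for each gene, in panels by class; filled points passed an adjusted p of 0.05 and open points did not. Every fibrillar point lies left of 0 at both tumour sites, whereas basement membrane genes run from about the fibrillar range (Col4a5) to 0 (Col4a1 and Col4a2).

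Fibrillar collagens carried the most abundant transcripts of the set in tumour-free muscle. Levels between genes are given per kilobase of the longest protein-coding transcript. Col3a1, at chr1:45311538-45349706, encodes the chain of type III collagen and led in sham at 115 ± 21.1 CPM per kilobase (mean ± SD, n = 4), ahead of Col1a2 at 78.4 ± 10.6 and Col1a1 at 54.1 ± 9.26. In control the same genes stood at 97.3 ± 22.5, 59.6 ± 15.61 and 39.3 ± 10.7. In splenic C26 they stood at 16.6 ± 20.9, 15.0 ± 16.3 and 9.92 ± 11.6, and in subcutaneous C26 at 17.5 ± 14.2, 12.01 ± 5.77 and 8.25 ± 5.92. The SDs of the splenic group exceed the means, and replicate 1 was the highest of its libraries for all 3 genes.

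Col1a1, at chr11:94936224-94953042, encodes the chain that makes up most of type I collagen. It measured 256, 299, 346 and 382 CPM in sham replicates 1 to 4 and 161, 34.0, 29.3 and 11.3 CPM in splenic C26 replicates 1 to 4. It measured 255, 311, 165 and 201 CPM in the control libraries and 35.001, 19.999, 99.9 and 40.7 CPM in the subcutaneous C26 libraries. All tumour libraries lay below all libraries of their tumour-free group in both comparisons. The log2 fold change was -2.44 ± 0.65 (SE, adjusted p = 0.00656) in splenic and -2.25 ± 0.65 (SE, adjusted p = 0.0104) in subcutaneous C26. It was -3.68 in splenic C26 without its replicate 1, and -2.87 in subcutaneous C26 without its replicate 3.

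Col1a2, at chr6:4504814-4541544, encodes the partner chain of type I collagen. Levels were 347, 402, 461 and 467 CPM in sham replicates 1 to 4 and 211, 46.8, 34.6 and 28.7 CPM in splenic C26 replicates 1 to 4. They were 338, 428, 245 and 264 CPM in the control libraries and 55.9, 30.2, 105 and 66.3 CPM in the subcutaneous C26 libraries. Again no tumour library reached its tumour-free range. The fold changes were -2.38 ± 0.55 (SE, adjusted p = 0.00278) and -2.31 ± 0.55 (SE, adjusted p = 0.00349), and -3.50 in splenic C26 without replicate 1. The per-kilobase ratio of Col1a1 to Col1a2 was 0.665 to 0.737 in sham and 0.354 to 0.764 in splenic C26, and 0.610 to 0.688 in control and 0.554 to 0.862 in subcutaneous C26. The ranges overlapped, and the lowest ratio was that of splenic C26 replicate 4.

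Col3a1 had 473, 651, 739 and 701 CPM in sham replicates 1 to 4 and 264, 63.6, 17.3 and 23.8 CPM in splenic C26 replicates 1 to 4. It had 559.7, 711, 453 and 440.4 CPM in the control libraries and 66.6, 36.5, 213 and 73.0 CPM in the subcutaneous C26 libraries. The spread within the tumour groups was wide: splenic C26 replicate 1 lay far above the other 3, and subcutaneous C26 replicate 3 was the highest of its group. The fold changes were -2.80 ± 0.73 (SE, adjusted p = 0.00585) and -2.47 ± 0.72 (SE, adjusted p = 0.0111), the former -4.19 without splenic C26 replicate 1 and the latter -3.20 without subcutaneous C26 replicate 3.

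The starts of Col1a2 and Col3a1, which fell together, were taken from RefSeq (GRCm38.p6) as 250 bases before to 50 after the annotated start, 5′ to 3′; capitals mark matches to TATAAA (the TATA box letters), to CCAAT (the CCAAT box) or to GGGCGG (a GC box) on either strand.
Col1a2, chr6:4505368-4505667, plus strand: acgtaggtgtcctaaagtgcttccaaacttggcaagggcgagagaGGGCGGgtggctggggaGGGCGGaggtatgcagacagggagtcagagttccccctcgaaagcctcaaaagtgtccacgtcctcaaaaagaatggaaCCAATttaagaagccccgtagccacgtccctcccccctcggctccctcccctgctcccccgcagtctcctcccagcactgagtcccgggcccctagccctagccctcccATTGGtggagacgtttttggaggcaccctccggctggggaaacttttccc
Col3a1, chr1:45311288-45311587, plus strand: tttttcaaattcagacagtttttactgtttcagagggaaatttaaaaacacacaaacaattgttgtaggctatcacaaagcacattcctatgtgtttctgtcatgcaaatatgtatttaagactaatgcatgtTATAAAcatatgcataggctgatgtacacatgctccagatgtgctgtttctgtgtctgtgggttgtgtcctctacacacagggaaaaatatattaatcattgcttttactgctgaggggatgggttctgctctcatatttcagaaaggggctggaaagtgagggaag
The Col1a2 window holds 2 GGGCGG matches, 205 and 188 bases upstream, and 2 CCAAT matches, 109 bases upstream and beginning at the start base itself. The Col3a1 window holds a TATAAA match 117 bases upstream and no match to the other motifs. RefSeq windows were found for 35 of the 46 genes. For these, 1 window per gene was counted, the first listed for the 2 genes with more than 1. The 32851 count every window, so a gene can be in it more than once. GGGCGG occurred in 65.7% of those 35 against 35.7% of all 32851 windows, CCAAT in 31.4% against 37.4% and TATAAA in 17.1% against 13.6%, counted on both strands with no overlap between motifs required or excluded. TTCNNNGAA and GTAAACA, searched the same way, occurred in 5.71% and 2.86% of the 35 windows and in 8.3% and 3.65% of all windows. A match describes the letters of the window and is not a site of binding.

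Col5a3 and Col27a1 had the smallest p-values of the class. Col5a3, a chain of type V collagen, which helps to start fibrils, measured 45.6, 76.9, 80.1 and 77.7 CPM in sham replicates 1 to 4 and 35.8, 8.52, 15.84 and 11.6 CPM in splenic C26 replicates 1 to 4. It measured 75.5, 82.8, 49.7 and 52.4 CPM in the control libraries and 17.5, 11.9, 16.9 and 14.3 CPM in the subcutaneous C26 libraries. The groups did not overlap, with fold changes of -1.96 ± 0.36 (SE, adjusted p = 0.000649) and -2.11 ± 0.36 (SE, adjusted p = 0.000453). Col27a1, a fibrillar collagen best known from cartilage, measured 3.55, 5.22, 5.17 and 3.74 CPM in sham replicates 1 to 4 and 1.91, 0.758, 0.564 and 1.28 CPM in splenic C26 replicates 1 to 4. It measured 5.17, 4.23, 3.31 and 3.79 CPM in the control libraries and 1.497, 0.825, 1.41 and 1.33 CPM in the subcutaneous C26 libraries. It changed by -1.95 ± 0.32 (SE, adjusted p = 0.000352) and -1.71 ± 0.32 (SE, adjusted p = 0.000777).

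The other 5 fibrillar genes, Col5a1, Col5a2, Col11a1, Col11a2 and Col24a1, changed by log2 values from -1.96 to -2.50 in splenic and from -1.87 to -3.25 in subcutaneous C26, with adjusted p of at most 0.00821. Col24a1 was low in counts, at 6.46, 8.67, 7.30 and 7.62 CPM in the control libraries and 0.414, 0.286, 2.32 and 0.222 CPM in the subcutaneous C26 libraries. Its fold change in subcutaneous C26 moved from -3.25 to -4.58 without replicate 3, and that of Col11a2 from -2.35 to -3.21 and of Col11a1 from -2.59 to -3.22. In splenic C26, leaving out replicate 1 moved Col24a1 to -3.78, Col5a2 to -2.87 and Col11a2 to -2.61. Type V chains parted in tumour libraries. The per-kilobase ratio of Col5a1 to Col5a2 was 1.01 to 1.18 in sham and 0.375 to 0.814 in splenic C26 apart from replicate 3, where it was 3.28. It was 1.06 to 1.28 in control and 0.385 to 0.920 in subcutaneous C26. The class median without splenic C26 replicate 1 was -2.98, and without subcutaneous C26 replicate 3 it was -3.04.

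**Figure D3:**
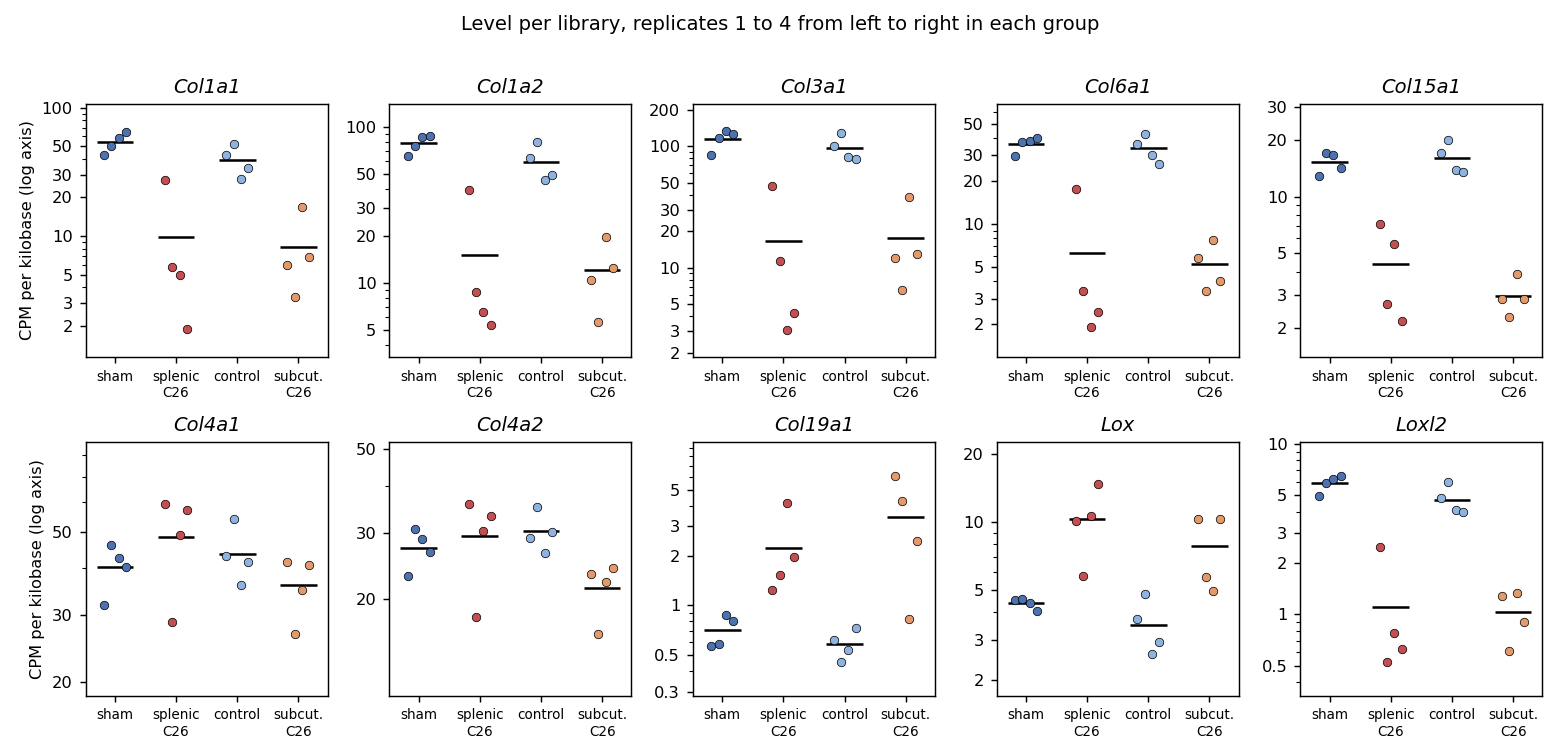
CPM per kilobase of 10 genes in every library, on log axes that differ between panels; points are libraries and bars group means. Col1a1, Col1a2, Col3a1, Col6a1, Col15a1 and Loxl2 lie lower in every tumour library than in any library of the matching tumour-free group, Col4a1 overlaps at both sites and Col4a2 in the splenic comparison, and Col19a1 and Lox lie higher.

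Basement membrane collagens split into chains that fell and a gene pair that stayed high. Col4a1 and Col4a2 encode the chains of the ubiquitous type IV network. Col4a1, at chr8:11198423-11312826, measured 212, 305, 281 and 266 CPM in sham replicates 1 to 4 and 393, 191, 325 and 377 CPM in splenic C26 replicates 1 to 4. It measured 285, 359, 239 and 275 CPM in the control libraries and 275, 177, 231 and 271 CPM in the subcutaneous C26 libraries. Tumour and tumour-free levels overlapped at both sites, and the gene did not pass, at 0.27 ± 0.22 in splenic C26 (95% interval -0.19 to 0.73, adjusted p = 0.301) and -0.28 ± 0.22 in subcutaneous C26 (-0.74 to 0.18, adjusted p = 0.289). These intervals exclude a fall as large as the fibrillar medians.

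Col4a2, at chr8:11312805-11449287, measured 149, 199, 187 and 172 CPM in sham replicates 1 to 4 and 232, 116, 196 and 215 CPM in splenic C26 replicates 1 to 4. It measured 187, 227, 172 and 195 CPM in the control libraries and 150.2, 104, 144 and 156 CPM in the subcutaneous C26 libraries. The splenic groups overlapped, with a change of 0.10 ± 0.19 (95% interval -0.31 to 0.51, adjusted p = 0.671) whose sign turned in 4 of the alternative fits. In subcutaneous C26 all 4 libraries lay below the control range and the gene was called lower, at -0.49 ± 0.19 (95% interval -0.91 to -0.08, adjusted p = 0.0446). That call was lost on leaving out any of sham replicates 3 and 4, control replicates 1, 2 and 4, and subcutaneous C26 replicates 2 and 3 (adjusted p 0.0526 to 0.115). The difference between its tumour effects was 0.60 ± 0.27 with an unadjusted p of 0.0448 and an adjusted p of 0.768, and for Col4a1 it was 0.55 ± 0.31 (adjusted p = 0.853). The per-kilobase ratio of Col4a1 to Col4a2 was 1.39 to 1.51 in sham and 1.61 to 1.71 in splenic C26, and 1.36 to 1.54 in control and 1.57 to 1.78 in subcutaneous C26, so tumour libraries held more Col4a1 for each Col4a2.

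The other type IV chains went lower. Col4a5, on the X chromosome at chrX:141475385-141689234, encodes a chain of the alternative type IV network. It measured 5.64, 8.92, 8.81 and 7.34 CPM in sham replicates 1 to 4 and 3.83, 0.578, 0.282 and 0.738 CPM in splenic C26 replicates 1 to 4. It measured 8.86, 9.74, 8.14 and 6.2 CPM in the control libraries and 0.892, 0.508, 1.33 and 1.296 CPM in the subcutaneous C26 libraries. Every tumour library lay below the tumour-free range, with fold changes of -2.46 ± 0.56 (SE, adjusted p = 0.00244) and -3.04 ± 0.58 (SE, adjusted p = 0.000854), and -3.81 in splenic C26 without replicate 1. Col4a3 and Col4a4, its partner chains in that network, measured under 10 CPM in every library and changed by -1.55 ± 0.52 (SE, adjusted p = 0.0225) and -1.45 ± 0.50 (SE, adjusted p = 0.025) in splenic C26. In subcutaneous C26 the changes were -1.70 ± 0.53 (SE, adjusted p = 0.0156) and -1.69 ± 0.51 (SE, adjusted p = 0.0129). In splenic C26 both sat near the sham level in replicate 1, at 6.80 CPM for Col4a3 and 6.35 CPM for Col4a4, and at 0.658 to 1.44 CPM in the other 3 libraries. Their splenic calls were lost without splenic C26 replicate 2, 3 or 4, and that of Col4a4 also without sham replicate 4 (adjusted p 0.0507 to 0.0737). Without splenic C26 replicate 1 the values were -2.71 and -2.46. For Col4a3, 5.65% of exon bases are shared with the opposite-strand gene C430014B12Rik, and the strand setting of the counting is not given in the sources used here.

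Both type IV pairs with each gene in the count table lie head to head, as the GENCODE M21 annotation of GRCm38 (mm10) shows. Col4a6 was not in that table, so the neighbours of Col4a5 were not examined with it. Col4a1 and Col4a2 on chromosome 8 overlap by 22 bases at their starts, and Col4a4 and Col4a3 on chromosome 1 lie 71 bases apart. The RefSeq windows of the former pair, whose changes lay nearest to 0 in the class, and of Col4a4, from the latter pair, are printed with matches to the same 3 motifs in capitals.
Col4a1, chr8:11312777-11313076, minus strand: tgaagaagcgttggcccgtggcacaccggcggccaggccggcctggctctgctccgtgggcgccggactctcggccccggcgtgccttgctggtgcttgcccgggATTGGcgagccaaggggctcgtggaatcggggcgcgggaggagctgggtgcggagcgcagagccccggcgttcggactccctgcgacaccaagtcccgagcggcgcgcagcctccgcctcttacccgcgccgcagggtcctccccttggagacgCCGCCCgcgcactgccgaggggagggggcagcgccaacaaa
Col4a2, chr8:11312555-11312854, plus strand: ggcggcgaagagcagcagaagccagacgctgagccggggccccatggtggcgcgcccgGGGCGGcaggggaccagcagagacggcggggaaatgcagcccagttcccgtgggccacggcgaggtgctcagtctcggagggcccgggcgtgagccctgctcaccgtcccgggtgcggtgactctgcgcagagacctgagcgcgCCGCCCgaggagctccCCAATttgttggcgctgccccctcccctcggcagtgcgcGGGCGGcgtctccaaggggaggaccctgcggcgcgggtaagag
Col4a4, chr1:82586800-82587099, minus strand: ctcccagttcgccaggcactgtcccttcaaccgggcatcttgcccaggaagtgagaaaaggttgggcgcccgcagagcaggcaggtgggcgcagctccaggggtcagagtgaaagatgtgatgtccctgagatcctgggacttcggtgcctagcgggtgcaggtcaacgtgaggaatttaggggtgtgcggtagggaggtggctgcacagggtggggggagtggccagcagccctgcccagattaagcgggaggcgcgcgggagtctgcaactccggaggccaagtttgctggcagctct
The Col4a1 and Col4a2 windows share 78 bases. Col4a1 holds a CCAAT match 145 bases upstream and a GGGCGG match 9 bases downstream, and Col4a2 holds a CCAAT match 32 bases upstream and GGGCGG matches 192 and 48 bases upstream and 7 bases downstream. The Col4a4 window holds none of the 3 motifs, which says only that these letters are not in this window.

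Types XV and XVIII, which bridge the basement membrane and the matrix around it, fell. Col15a1, at chr4:47208161-47313167, had the smallest p-value of the class at both sites. It measured 66.3, 87.8, 86.5 and 73.7 CPM in sham replicates 1 to 4 and 37.1, 14.0, 28.9 and 11.3 CPM in splenic C26 replicates 1 to 4. It measured 88.2, 103, 71.8 and 69.8 CPM in the control libraries and 14.9, 11.9, 20.04 and 14.8 CPM in the subcutaneous C26 libraries. No tumour library overlapped its tumour-free group, with fold changes of -1.78 ± 0.30 (SE, adjusted p = 0.000418) and -2.43 ± 0.31 (SE, adjusted p = 8.5e-05). Col18a1, the source of endostatin, measured 16.02, 20.7, 17.4 and 18.6 CPM in sham replicates 1 to 4 and 14.1, 6.25, 5.83 and 8.27 CPM in splenic C26 replicates 1 to 4. It measured 22.2, 28.4, 18.5 and 18.03 CPM in the control libraries and 6.43, 5.46, 9.03 and 5.44 CPM in the subcutaneous C26 libraries. Its groups did not overlap, with fold changes of -1.07 ± 0.25 (SE, adjusted p = 0.00324) and -1.73 ± 0.26 (SE, adjusted p = 0.000201), and splenic C26 replicate 1 lay just under the lowest sham library.

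The make-up of collagen RNA differed between tumour-bearing and tumour-free muscle. Summed over all 35 chains, collagen RNA was 477 ± 64.3 CPM per kilobase in sham, 161 ± 87.7 in splenic C26, 420.4 ± 85.6 in control and 131 ± 37.3 in subcutaneous C26 (mean ± SD, n = 4). Fibrillar chains summed to 288 ± 45.5, 50.9 ± 55.1, 230.5 ± 55.3 and 44.9 ± 28.0 CPM per kilobase in the same order. Basement membrane chains summed to 88.8 ± 11.8, 84.7 ± 24.1, 96.8 ± 15.1 and 62.3 ± 11.0, and other collagens to 100.6 ± 10.6, 25.6 ± 16.97, 93.1 ± 15.98 and 23.3 ± 5.02. Thus fibrillar chains gave 60.2% ± 1.93 of collagen RNA in sham and 27.0% ± 14.6 in splenic C26, and 54.5% ± 1.97 in control and 32.3% ± 11.0 in subcutaneous C26. Basement membrane chains gave 18.7% ± 1.65 and 57.6% ± 16.8, then 23.2% ± 1.56 and 49.4% ± 9.05. Shares of a whole move together, so a higher share of a class does not show a higher level.

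By type, type IV was the largest contributor in all 8 tumour libraries, at 33.4%, 48.0%, 61.5% and 72.1% in splenic C26 and 49.4%, 50.9%, 32.8% and 51.4% in subcutaneous C26. In the 8 tumour-free libraries it gave 13.4% to 20.6%. Its summed level was 70.4 ± 9.60 CPM per kilobase in sham, 78.7 ± 22.3 in splenic C26, 76.8 ± 11.5 in control and 58.1 ± 10.7 in subcutaneous C26. Type I went as a share from 27.8% ± 1.39 to 13.0% ± 7.52 and from 23.3% ± 1.66 to 14.7% ± 4.39, and type III from 24.03% ± 1.38 to 8.44% ± 6.69 and from 23.0% ± 0.796 to 12.2% ± 6.47. The ratio of Col4a1 to Col1a2 per kilobase was 0.461 to 0.614 in sham against 1.51 to 10.6 in splenic C26, and 0.677 to 0.844 in control against 1.79 to 4.74 in subcutaneous C26. By mean level Col3a1 ranked first among the collagens in sham and control, and Col4a1 ranked first in both tumour groups, at 48.6 ± 13.9 and 36.0 ± 6.88 CPM per kilobase. Col4a2 came next in both, at 29.4 ± 7.97 and 21.5 ± 3.64, and its lead over Col3a1 (16.6 ± 20.9 and 17.5 ± 14.2) is smaller than the SD of Col3a1.

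**Figure D4:**
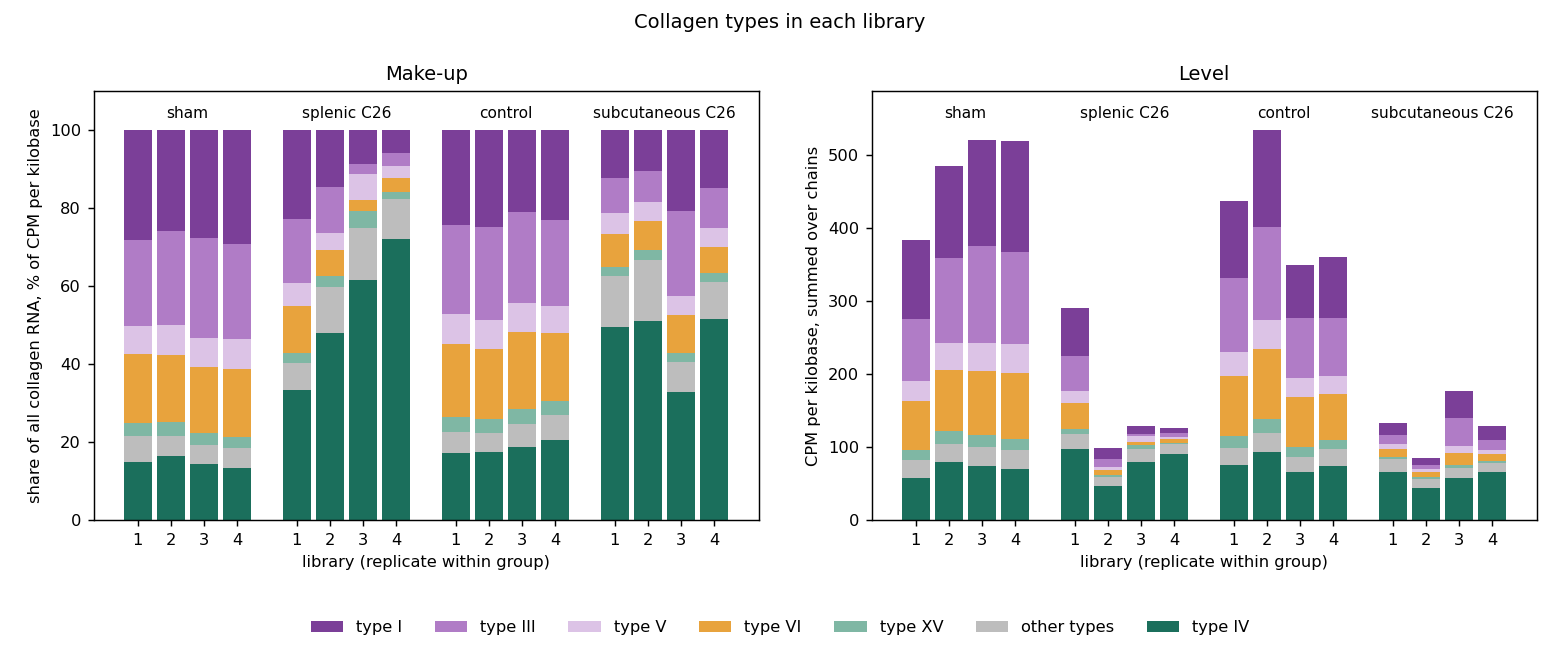
Stacked bars give each collagen type per library, as a share of summed CPM per kilobase on the left and as the summed level on the right. Type IV, at the foot of each bar, holds 13.4% to 20.6% in tumour-free and 32.8% to 72.1% in tumour libraries. Its height on the right runs from 43.222 to 97.4 CPM per kilobase over all libraries. The mean height is 78.7 in splenic C26 against 70.4 in sham, and 58.1 in subcutaneous C26 against 76.8 in control.

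Type VI fell furthest among the other collagens by its median. Of its 5 chains 4 were called lower at both sites, with medians over the 5 of -2.51 and -2.92, and -4.24 in splenic C26 without replicate 1. Col6a1 (at chr10:76708792-76726168) encodes a chain of the core heterotrimer. It measured 122, 153, 156 and 162 CPM in sham replicates 1 to 4 and 71.9, 13.9, 7.90 and 9.98 CPM in splenic C26 replicates 1 to 4. It measured 148, 173, 123 and 107 CPM in the control libraries and 23.6, 14.1, 31.7 and 16.5 CPM in the subcutaneous C26 libraries. The groups were separate, with fold changes of -2.51 ± 0.56 (SE, adjusted p = 0.00226) and -2.68 ± 0.56 (SE, adjusted p = 0.00168), and -3.79 in splenic C26 without replicate 1.

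Col6a2 (at chr10:76595762-76623630), which follows Col6a1 on the same strand of chromosome 10 at a distance of 85161 bases, measured 121, 154, 163 and 174 CPM in sham replicates 1 to 4 and 53.0, 10.3, 7.10 and 6.72 CPM in splenic C26 replicates 1 to 4. It measured 151, 177, 122 and 108 CPM in the control libraries and 18.2, 9.30, 28.6 and 14.8 CPM in the subcutaneous C26 libraries. It changed by -2.98 ± 0.58 (SE, adjusted p = 0.000966) and -2.98 ± 0.58 (SE, adjusted p = 0.00102), and by -4.24 in splenic C26 without replicate 1. Col6a3 (at chr1:90765923-90843971), the long chain of the trimer, measured 99.2, 110.4, 119 and 115 CPM in sham replicates 1 to 4 and 48.4, 7.80, 4.37 and 4.35 CPM in splenic C26 replicates 1 to 4. It measured 117, 134, 102 and 109 CPM in the control libraries and 13.9, 7.59, 28.5 and 11.0 CPM in the subcutaneous C26 libraries. It changed by -2.76 ± 0.65 (SE, adjusted p = 0.00328) and -2.92 ± 0.66 (SE, adjusted p = 0.00258), and by -4.32 without splenic C26 replicate 1. The ratio of Col6a1 to Col6a2 per kilobase was 1.06 to 1.15 in sham and 1.11 to 1.15 in control, against 1.26 to 1.69 in splenic and 1.26 to 1.72 in subcutaneous C26. Thus all 8 tumour libraries held more Col6a1 relative to Col6a2 than any tumour-free library.

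The alternative type VI chains were scarcer. Col6a6 fell from 21.2, 22.6, 21.9 and 18.8 CPM in sham to 13.6, 1.73, 0.329 and 0.893 CPM in splenic C26, a change of -2.33 ± 0.73 (SE, adjusted p = 0.0155), and by -4.37 without replicate 1. Over the alternative fits the splenic change was as small as -1.95, and the call was not kept in all of them (adjusted p up to 0.0596). DESeq2 gave it no adjusted p. In subcutaneous C26 it changed by -3.06 ± 0.76 (SE, adjusted p = 0.00455). Col6a5 measured at most 1.85 CPM, had no count in splenic C26 replicate 4, and passed in neither comparison (-1.07 ± 0.79, adjusted p = 0.266, and -1.38 ± 0.84, adjusted p = 0.181). Without splenic C26 replicate 1, where Col6a5 stood at 1.85 CPM, it was called lower in splenic C26 at -3.16 (adjusted p = 0.00143).

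Several collagens outside types IV and VI were also lower. Col12a1, which coats type I fibrils, measured 23.4, 18.9, 19.7 and 20.3 CPM in sham replicates 1 to 4 and 11.1, 3.25, 12.7 and 12.1 CPM in splenic C26 replicates 1 to 4. It measured 13.1, 15.75, 8.97 and 13.0 CPM in the control libraries and 4.94, 2.48, 3.31 and 2.96 CPM in the subcutaneous C26 libraries. The fold changes were -1.07 ± 0.32 (SE, adjusted p = 0.0125) and -1.89 ± 0.33 (SE, adjusted p = 0.00054), and splenic C26 replicate 2 lay apart below the rest of its group. Col16a1, also fibril-associated, measured 7.93, 9.10, 7.28 and 9.94 CPM in sham replicates 1 to 4 and 5.20, 1.70, 2.16 and 1.32 CPM in splenic C26 replicates 1 to 4. It measured 8.17, 8.35, 5.56 and 6.71 CPM in the control libraries and 2.23, 1.02, 2.57 and 1.33 CPM in the subcutaneous C26 libraries. It changed by -1.71 ± 0.37 (SE, adjusted p = 0.00183) and -2.01 ± 0.38 (SE, adjusted p = 0.000775), and by -2.30 without splenic C26 replicate 1.

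Col8a1, a short-chain collagen of vessel walls, measured 6.05, 8.06, 6.62 and 7.27 CPM in sham replicates 1 to 4 and 5.30, 1.48, 1.83 and 1.75 CPM in splenic C26 replicates 1 to 4. It measured 9.35, 9.24, 7.45 and 5.997 CPM in the control libraries and 2.58, 1.05, 2.112 and 1.22 CPM in the subcutaneous C26 libraries. It changed by -1.42 ± 0.37 (SE, adjusted p = 0.00555) and -2.20 ± 0.38 (SE, adjusted p = 0.00046), and by -2.04 without splenic C26 replicate 1. Its partner chain Col8a2 changed by -1.05 ± 0.25 (SE, adjusted p = 0.0031) and -1.29 ± 0.26 (SE, adjusted p = 0.00119). Col14a1, another fibril-associated collagen, changed in splenic C26 by -1.78 ± 0.52 (SE, adjusted p = 0.0115), or -2.89 without replicate 1. In subcutaneous C26 it measured -1.13 ± 0.52 (adjusted p = 0.0802), a value that passed without splenic C26 replicate 1 or 3. The transmembrane collagens Col13a1 and Col23a1 and the junction collagen Col22a1 passed in subcutaneous C26, at -1.004 ± 0.38 (SE, adjusted p = 0.0378), -0.99 ± 0.21 (SE, adjusted p = 0.00161) and -0.94 ± 0.32 (SE, adjusted p = 0.0228). None of these 3 differed between the tumour sites after adjustment, the smallest adjusted p being 0.651 for Col23a1. The Col13a1 call was lost without control replicate 1, 2 or 4 or any of the subcutaneous C26 libraries (adjusted p up to 0.0864). The Col22a1 call was lost on leaving out any of control replicate 4 and subcutaneous C26 replicates 1 and 2 (up to 0.0609), and without subcutaneous C26 replicate 3 Col22a1 passed in the splenic comparison too.

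Col19a1 went the other way. It encodes a rare collagen of basement membrane zones that associates with fibrils. Its RefSeq window is shown because the gene rose; it holds no match to the same 3 motifs.
Col19a1, chr1:24587388-24587687, minus strand: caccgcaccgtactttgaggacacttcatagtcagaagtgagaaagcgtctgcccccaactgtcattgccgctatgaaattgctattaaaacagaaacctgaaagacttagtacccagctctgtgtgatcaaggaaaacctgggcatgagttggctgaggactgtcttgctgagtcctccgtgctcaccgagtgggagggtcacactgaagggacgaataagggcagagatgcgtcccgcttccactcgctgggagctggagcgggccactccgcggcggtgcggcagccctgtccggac
The gene, at chr1:24261890-24587472, measured 2.43, 2.49, 3.70 and 3.43 CPM in sham replicates 1 to 4 and 5.27, 6.50, 17.8 and 8.39 CPM in splenic C26 replicates 1 to 4. It measured 2.61, 1.92, 2.29 and 3.12 CPM in the control libraries and 26.1, 18.3, 3.52 and 10.5 CPM in the subcutaneous C26 libraries. All tumour libraries exceeded the matching tumour-free range, by little in subcutaneous C26 replicate 3 and by most in subcutaneous C26 replicate 1. The fold changes were 1.65 ± 0.48 (SE, adjusted p = 0.0111) and 2.55 ± 0.50 (SE, adjusted p = 0.00101). The splenic call was lost without splenic C26 replicate 3, the library highest in neutrophil markers (1.15, adjusted p = 0.0514). By mean level per kilobase Col19a1 ranked 27 of the 35 collagens in sham and 28 in control, 13 in splenic C26 and 8 in subcutaneous C26.

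Col7a1, the anchoring fibril collagen of skin, was called higher in splenic C26. It measured 21.97, 14.8, 18.4 and 18.1 CPM in sham replicates 1 to 4 and 31.0, 25.8, 38.97 and 17.7 CPM in splenic C26 replicates 1 to 4. It measured 17.6, 17.8, 18.96 and 29.9 CPM in the control libraries and 30.0, 28.4, 26.3 and 25.2 CPM in the subcutaneous C26 libraries. The groups overlapped at both sites, with 0.63 ± 0.22 (SE, adjusted p = 0.0253) and 0.38 ± 0.22 (adjusted p = 0.152). The splenic call was lost without sham replicate 2, 3 or 4 or splenic C26 replicate 3 (adjusted p up to 0.103), and under upper-quartile scaling (0.42, adjusted p = 0.112). It was also lost in the fit without splenic C26 replicates 1 and 3, control replicate 1 and subcutaneous C26 replicate 4. Over all alternative fits the splenic value was as low as 0.26 and the adjusted p as high as 0.349. Without control replicate 4, which at 29.9 CPM stood above its group, Col7a1 passed in subcutaneous C26 (0.60, adjusted p = 0.0302). Col20a1 did not overlap in the splenic comparison but missed the threshold (0.48 ± 0.22, adjusted p = 0.078), and it passed there without splenic C26 replicate 1 or subcutaneous C26 replicate 3, and in subcutaneous C26 without its replicate 3. Col17a1 and Col28a1 had at most 2.83 and 1.01 CPM and passed at neither site.

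Among the processing proteins of the set, Serpinh1 was called lower in splenic C26, and Bmp1 and Pcolce, which act in trimming, at both sites. Serpinh1 encodes a chaperone that binds folded procollagen. It measured 59.5, 85.6, 94.2 and 119 CPM in sham replicates 1 to 4 and 55.5, 29.9, 15.4 and 18.8 CPM in splenic C26 replicates 1 to 4. It measured 69.2, 81.9, 59.5 and 107 CPM in the control libraries and 43.66, 33.05, 66.5 and 33.9 CPM in the subcutaneous C26 libraries. It changed in splenic C26 by -1.58 ± 0.36 (SE, adjusted p = 0.0027), while the subcutaneous groups overlapped at -0.84 ± 0.36 (adjusted p = 0.0613). The latter passed without splenic C26 replicate 1, 3 or 4 or subcutaneous C26 replicate 3 (adjusted p 0.0135 to 0.0437), and the difference between the sites was not called (-0.74 ± 0.50, adjusted p = 0.901).

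Bmp1, the proteinase that removes the C-propeptide, measured 31.7, 33.2, 34.2 and 39.1 CPM in sham replicates 1 to 4 and 24.4, 11.6, 8.18 and 12 CPM in splenic C26 replicates 1 to 4. It measured 32.1, 38.7, 29.7 and 26.2 CPM in the control libraries and 17.5, 9.62, 15.1 and 20.2 CPM in the subcutaneous C26 libraries. No tumour library overlapped its tumour-free group, with fold changes of -1.29 ± 0.28 (SE, adjusted p = 0.00188) and -1.02 ± 0.28 (SE, adjusted p = 0.00769). Pcolce, which enhances that cleavage, measured 51.7, 66.3, 64.2 and 72.2 CPM in sham replicates 1 to 4 and 59.5, 15.5, 7.33 and 6.95 CPM in splenic C26 replicates 1 to 4. It measured 60.3, 69.5, 48.5 and 40.3 CPM in the control libraries and 19.9, 12, 31.1 and 17.2 CPM in the subcutaneous C26 libraries. Splenic C26 replicate 1 lay within the sham range and the other 3 far below it. The fold changes were -1.51 ± 0.54 (SE, adjusted p = 0.0289) and -1.45 ± 0.54 (SE, adjusted p = 0.0358), and -2.67 without splenic C26 replicate 1. The splenic call was lost without sham replicate 2, 3 or 4 or splenic C26 replicate 2, 3 or 4 (adjusted p up to 0.073). The subcutaneous call was lost on leaving out any of control replicates 1, 2 and 3 and subcutaneous C26 replicates 1, 2 and 4 (up to 0.0892).

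Among the hydroxylases 1 gene was called at each site. P4ha1, a catalytic subunit of prolyl 4-hydroxylase, measured 54.3, 55.5, 63.7 and 81.9 CPM in sham replicates 1 to 4 and 44.3, 41.6, 24.2 and 20.5 CPM in splenic C26 replicates 1 to 4. It measured 49.5, 54.4, 54.0 and 107 CPM in the control libraries and 43.6, 47.1, 66.1 and 43.4 CPM in the subcutaneous C26 libraries. It changed in splenic C26 by -0.97 ± 0.28 (SE, adjusted p = 0.0111) and overlapped in subcutaneous C26, at -0.40 ± 0.28 (adjusted p = 0.241). Plod3, a lysyl hydroxylase that also transfers sugars to collagen, measured 21.04, 25.3, 25.8 and 32.1 CPM in sham replicates 1 to 4 and 32.2, 32.4, 24.6 and 21.7 CPM in splenic C26 replicates 1 to 4. It measured 24.2, 23.1, 21.6 and 23.95 CPM in the control libraries and 32.9, 33.7, 31.7 and 32.6 CPM in the subcutaneous C26 libraries. The 4 subcutaneous C26 libraries lay close together above the control range (0.50 ± 0.14 (SE, adjusted p = 0.00973)), and the splenic groups overlapped (0.09 ± 0.14, adjusted p = 0.608). Under upper-quartile scaling the subcutaneous value was 0.26 (adjusted p = 0.184). Of the exon bases of Plod3, 11.9% are shared with Mir702 or the opposite-strand Znhit1, and the strand setting of the counting is not known. Plod1, Plod2 and P4ha2 passed at neither site, with log2 values between -0.46 and -0.03.

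The cross-linking oxidases diverged. Lox, which starts cross-links in collagen and elastin, measured 21.4, 21.7, 20.7 and 19.1 CPM in sham replicates 1 to 4 and 47.9, 27.6, 50.7 and 70.4 CPM in splenic C26 replicates 1 to 4. It measured 17.6, 22.8, 12.3 and 14.0 CPM in the control libraries and 49.0, 27.1, 23.5 and 49.1 CPM in the subcutaneous C26 libraries. Every tumour library exceeded its tumour-free group, by 1.25 ± 0.29 (SE, adjusted p = 0.00263) and 1.15 ± 0.29 (SE, adjusted p = 0.00438), and these calls held in all 27 alternative fits. Loxl2, a relative that acts on type IV collagen, measured 26.2, 31.3, 32.97 and 34.3 CPM in sham replicates 1 to 4 and 13.2, 2.82, 4.14 and 3.34 CPM in splenic C26 replicates 1 to 4. It measured 25.6, 31.6, 21.8 and 21.1 CPM in the control libraries and 6.82, 3.24, 7.08 and 4.81 CPM in the subcutaneous C26 libraries. Every tumour library lay below, at -2.40 ± 0.41 (SE, adjusted p = 0.000411) and -2.19 ± 0.40 (SE, adjusted p = 0.000722), and -3.18 without splenic C26 replicate 1. The per-kilobase ratio of Lox to Loxl2 was 0.624 to 0.915 in sham and 4.06 to 23.7 in splenic C26, and 0.637 to 0.810 in control and 3.72 to 11.5 in subcutaneous C26. Loxl1, which acts mainly on elastin, overlapped at both sites (-0.50 ± 0.21, adjusted p = 0.0612, and -0.41 ± 0.21, adjusted p = 0.124), and it passed in splenic C26 without sham replicate 1 or splenic C26 replicate 3. For Loxl2, 5.70% of exon bases are shared with Gm27177 on the opposite strand or with Mir6950.

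The effects of the tumour sites were set against each other as the difference between both log2 fold changes. With edgeR none of the 46 genes passed (0.0% of all genes). Col23a1 (0.75 ± 0.29, unadjusted p = 0.0215 with edgeR) and Col4a2 made 2 genes at an unadjusted p under 0.05. DESeq2 called 0 of the 46, with 3 at p under 0.05, and 86 of all genes, and limma-voom called 0 with 1. The precision is limited: intervals for Col1a1 and Col3a1 ran from -2.05 to 1.67 and -2.38 to 1.73, on the log2 scale. The tumour-free groups were also compared. Between sham and control 0 of the 46 passed (0.00751% of all genes were called), with 2 at p under 0.05, Col8a2 (0.93 ± 0.24, adjusted p = 0.363) and Col12a1 (0.69 ± 0.32, unadjusted p = 0.0452). DESeq2 called 1, Col8a2, and limma-voom 0. Title prefix and group cannot be told apart in that comparison.

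Other genes of the collagen pathway, from lists chosen with earlier results known, are given by count, beside 23.9% lower and 28.1% higher of all genes in splenic and 23.1% and 27.0% in subcutaneous C26. Of 20 further collagen-processing genes 10 were lower and 5 higher in splenic and 9 and 4 in subcutaneous C26, with medians of -0.71 and -0.77. Colgalt1, a collagen galactosyltransferase, rose by 0.66 ± 0.11 (adjusted p = 0.000276) and 0.83 ± 0.11 (adjusted p = 7.56e-05), while Colgalt2 changed by -1.89 ± 0.38 and -2.46 ± 0.38. Tmem38b, an ion channel of the endoplasmic reticulum, rose by 1.65 ± 0.27 and 1.73 ± 0.27. P4hb (0.81 ± 0.18 and 1.14 ± 0.18) and Mia3 (0.63 ± 0.16 and 0.66 ± 0.16) were also called higher at both sites. Adamts2 was called higher in splenic C26 (1.69 ± 0.56) and was at -0.91 ± 0.56, not called, in subcutaneous C26. Its splenic libraries spread widely, at 111 ± 103 CPM against 34.4 ± 4.04 in sham (mean ± SD). With edgeR the difference between the sites was called for no gene of the table. Of 16 collagen-binding proteoglycans and matrix proteins 12 were lower and 0 higher at both sites (medians -1.66 and -1.65), and the smallest p-values were those of Aspn at -1.90 ± 0.32 and -1.86 ± 0.32 and Postn at -1.97 ± 0.38 and -1.88 ± 0.38. Of 12 collagen-degrading proteases and inhibitors 4 were lower and 4 higher, then 3 and 3 (medians 0.21 and -0.16), shares close to those of all genes in subcutaneous C26. Mmp3, a matrix metalloproteinase, rose by 2.94 ± 0.43 and 3.52 ± 0.42, and Mrc2, a collagen uptake receptor, changed by -1.81 ± 0.39 and -1.85 ± 0.39. Timp3, a metalloproteinase inhibitor, was at -0.50 ± 0.18 and -0.85 ± 0.18, called at both sites. Of 8 collagen receptors 3 were lower and 0 higher, then 4 and 1, with Itga11, an integrin subunit of fibroblasts, at -1.76 ± 0.57 and -1.69 ± 0.56. Ddr2, a receptor for fibrillar collagen, was at -0.81 ± 0.29 and -0.41 ± 0.28, the latter not called. Itgb1, the shared integrin beta subunit, was at 0.36 ± 0.19, not called, and 0.61 ± 0.19. Of 14 laminins and other basement membrane genes 7 were lower and 3 higher, then 7 and 0 (medians -0.40 and -0.82). Nid2, a linker of laminin and type IV collagen, changed by -1.92 ± 0.37 and -2.50 ± 0.38, and Lama5, a laminin chain, rose in splenic C26 by 1.37 ± 0.29 and was at 0.65 ± 0.28, not called, in subcutaneous C26. Lamc3, another laminin chain, was at -1.82 ± 0.44 and -3.33 ± 0.47, called at both sites.

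Markers of cells that muscle holds are given against the shares of all genes, 23.9% lower and 28.1% higher in splenic and 23.1% and 27.0% in subcutaneous C26. Of 10 markers of fibro-adipogenic progenitors, the collagen-producing stromal cells of muscle, 8 were lower and 0 higher in splenic C26 and 6 and 1 in subcutaneous C26, with medians of -1.24 and -1.35. They summed to 562 to 742 CPM in sham, 283 to 647 in splenic C26, 435 to 890 in control and 312 to 586 in subcutaneous C26, and the 647 CPM belongs to splenic C26 replicate 1. Of 7 tendon cell markers 5 were lower at both sites, summing to 121 to 202 and 37.4 to 143 CPM, then 75.6 to 125 and 18.5 to 53.8 CPM, with splenic C26 replicate 1 again the highest of its group. Endothelial markers, 9 in all, gave 5 higher and 1 lower in splenic C26 and 1 higher and 4 lower in subcutaneous C26, with sums of 320 to 398 and 290 to 537 CPM, then 386 to 441 and 235 to 301 CPM. Markers of pericytes and smooth muscle, also 9, gave 1 higher and 2 lower, then 1 higher and 7 lower, and summed to 603 to 658 and 514 to 662 CPM, then 628 to 674 and 597 to 642 CPM. Of 7 Schwann cell markers 1 was lower in splenic and 4 in subcutaneous C26, with none higher. Of 7 macrophage markers 1 was higher and 1 lower in splenic C26, and 1 was higher and 0 lower in subcutaneous C26. Of 10 genes of the neuromuscular junction 2 were higher and 3 lower, then 3 and 5. The part of these cells in the collagen levels was not tested.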

How the data were processed

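Quadriceps RNA from 16 libraries in 4 groups of 4 was sequenced as 75-base paired reads, aligned with STAR and counted per gene with featureCounts, per the labels. The submitters' processing notes also name FastQC, edgeR and the mm10 build, while the sources used here give neither the annotation nor the strand setting, nor any version. The deposited counts are raw whole numbers for 13320 genes, all above 0.5 CPM in at least 4 libraries. Their total was 25.9 to 34.9 M per library, and 4013 blank lines were left out. The authors' second table holds log2 values that equal log2 CPM plus 1 constant per gene and per library (residual SD 0.00319 over 9543 genes with at least 50 counts in every library) and was used for 1 alternative.

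Counts were scaled with TMM factors (0.802 to 1.21). The quasi-likelihood test of edgeR 4.0.16 in R 4.3.3 was fitted over all 16 libraries after filterByExpr, which removed 0 genes. It gave 4 comparisons: splenic C26 against sham, subcutaneous C26 against control, the difference between these effects, and sham against control. P-values were adjusted by the Benjamini-Hochberg method over all 13320 genes with a threshold of 0.05, and fold changes are given as log2 with SE. CPM used TMM-scaled totals. Levels per kilobase used the longest protein-coding transcript of GENCODE M21, which matched all 46 genes and 12868 table symbols. Libraries of a group differed well beyond sampling noise (chi-square per degree of freedom of at least 13.0 for every pair).

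The members and all lists were chosen with earlier results of these data known. Values in every library were given, within each class, for the 3 genes of highest mean level per kilobase and the 2 of smallest p in each tumour comparison and direction, and some further genes were added. Of the other lists the 2 genes of smallest p in each comparison were named, and so were the further collagen-processing genes called higher. The 27 alternatives comprised 16 fits leaving out 1 library each, other scalings and filters, DESeq2 1.42.0, limma 3.58.1 (voom on counts, trend on the log2 table), single-comparison fits and fits without several libraries. Of the last kind, 1 fit left out splenic C26 replicate 1 and subcutaneous C26 replicate 3. Another left out the 4 libraries taken from an earlier reading of these data.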

Additional observations from a re-analysis of the deposited data

Results flagged for a closer look

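In 27 of 184 combinations of a gene and a group, 1 library stood apart from the other 3 by more than Dixon's 95% critical value for 4 samples. Chance flags about 1 in 20 groups, and genes of 1 library are not independent. Splenic C26 replicate 1 accounted for 15 of them, each time as the highest library. It held 161 CPM of Col1a1 (11.3 to 34.0 in the others), 211 CPM of Col1a2 (28.7 to 46.8), 41.4 CPM of Col5a2 (9.26 to 11.8) and 3.83 CPM of Col24a1 (0.361 to 0.854) among the fibrillar chains. Of basement membrane chains it held 6.80 CPM of Col4a3, 6.35 CPM of Col4a4 and 3.83 CPM of Col4a5. Of type VI it held 71.9 CPM of Col6a1, 53.0 CPM of Col6a2, 48.4 CPM of Col6a3, 1.85 CPM of Col6a5 and 13.6 CPM of Col6a6. Col8a1 stood at 5.30 CPM there, Loxl2 at 13.2 CPM (2.82 to 4.14 in the others) and Pcolce at 59.5 CPM (6.95 to 15.5).

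Subcutaneous C26 replicate 3 was high for Col11a2 at 4.22 CPM, Col24a1 at 2.32 CPM and P4ha1 at 66.1 CPM, and subcutaneous C26 replicate 1 for Col17a1 at 1.05 CPM. Control replicate 4 was high for P4ha1 at 107 CPM and Col7a1 at 29.9 CPM, control replicate 2 for Col4a4 at 7.90 CPM and control replicate 3 for Col17a1 at 2.83 CPM. In splenic C26, replicate 4 was high for Col23a1 at 3.65 CPM and replicate 2 low for Col12a1 at 3.25 CPM. Sham replicate 2 was low for Col8a2 at 2.49 CPM and sham replicate 1 for Col5a3 at 45.6 CPM.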

How the results depend on the processing

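The calls of 25 of the 29 genes lower in splenic C26 and 26 of the 30 lower in subcutaneous C26 were kept in every alternative that gave an adjusted p, as were 1 of 3 and 2 of 3 of the genes called higher. Leaving out 1 library at a time gave 26 to 30 lower and 1 to 4 higher genes in splenic C26, where the lowest count of higher genes came without splenic C26 replicate 3, and 26 to 33 lower and 3 to 4 higher in subcutaneous C26. Without splenic C26 replicates 1 and 3, control replicate 1 and subcutaneous C26 replicate 4 together, 1 gene was called higher in splenic C26, Lox, with Col19a1 at 1.32 (adjusted p = 0.0585, edgeR). DESeq2 called 1 gene higher in sham against control. DESeq2 gave no adjusted p for Col3a1, Col4a3, Col6a3 and Col6a6 in the tumour comparisons. In total edgeR called 32 and 33 members, DESeq2 28 and 31 and limma-voom 34 and 34.

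With upper-quartile scaling the median over all genes went from -0.03 to -0.24 in splenic and from -0.02 to -0.26 in subcutaneous C26, and the share of calls that were higher from 54.0% to 38.5% and from 53.9% to 34.9%. Members then called were 34 lower and 2 higher, and 33 and 2. Signs turned for 4 genes that had not passed in the comparison concerned. Col4a2 in splenic C26 was -0.0989 under upper-quartile scaling, -0.0085 without both intermediate tumour libraries (splenic C26 replicate 1 and subcutaneous C26 replicate 3), -0.0831 without those 4 libraries, and ran from -0.0003 (without splenic C26 replicate 1) to 0.2788 with 1 library left out. Plod3 in splenic C26 was -0.108 under upper-quartile scaling. With 1 library left out Col13a1 in splenic C26 ran from -0.6144 to 0.0492, the latter without splenic C26 replicate 2, and P4ha2 in subcutaneous C26 from -0.13 to 0.1241, above 0 without control replicate 4 or subcutaneous C26 replicate 1. The cause was not tested. Class medians on the log2 CPM scale (prior count 2) lay below 0. Fibrillar medians ran from -3.05 to -2.25 in splenic and from -2.88 to -2.20 in subcutaneous C26. Those of basement membrane collagens ran from -2.23 to -1.56 and from -2.03 to -1.62. Other collagens gave -1.24 to -0.88 and -1.34 to -0.96, and processing proteins -0.75 to -0.36 and -0.43 to -0.31. Medians of the fitted log2 fold changes differ in scale and went beyond some of these ranges. Without those 4 libraries they were -3.41 (fibrillar), -2.32 (basement membrane) and -1.27 (other collagens) in splenic C26. The fitted fibrillar median was -3.04 in subcutaneous C26 without its replicate 3. The scarcest genes rest on few counts, such as 6, 4 and 0 for Col6a5 in splenic C26 replicates 2, 3 and 4. Precision did not follow level alone: the splenic SE was 0.73 for Col3a1 and 0.25 for the scarcer Col8a2. No paired analysis was possible because the titles of the compared groups share no replicate numbers.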
